A study of Mus musculus with 20 samples.

Results

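Trimethylation of lysine 27 on histone H3 (H3K27me3) was examined at 27934 short, isolated islands of the mark in proliferating wild-type mouse embryonic fibroblasts. The islands were chosen by measured values: they are the peaks on the 19 autosomes of the proliferating WT list that are 1 to 10 kb long and lie more than 50 kb from any peak over 10 kb in either proliferating H3K27me3 list. They are 27934 of the 143252 peaks in that list, 21.3% of its autosomal peaks, and cover 68.3 Mb, which is 29.1% of its autosomal covered length. Because length and position chose them, both are given as descriptions, as is every value from the proliferating WT library. The proliferating SS list entered the rule only through its peaks over 10 kb.

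H3K27me3 is placed by the Polycomb repressive complex whose catalytic subunit is Ezh2, and it marks chromatin whose genes are silent. The mark can spread over long domains, as at clusters of developmental regulators, or lie in short stretches. The retinoblastoma protein pRb is a tumour suppressor that holds cells out of the cell cycle by binding E2F transcription factors and recruiting chromatin regulators.

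The fibroblasts came from C57BL/6 embryos at E13.5 and were used at passage 4. They carried either the WT genotype or a mutant genotype labelled SS, which the labels do not spell out. Proliferating cells grew in 10% serum, and the arrest protocol held cells in 0.1% serum for 72 h. H3K27me3 and pRb were immunoprecipitated from proliferating and arrested cells of each genotype, and Ezh2 from serum-deprived cells of each genotype. One field of the labels calls the arrested pRb cells confluence arrested. Each of the 10 lists comes from 1 library, so differences between genotypes or states carry no replicate check and no test was made. The number of embryos behind a library is not given in the sources used here, and read depth is unknown. The lists differ widely in size and grain: the arrested WT H3K27me3 list holds 656342 peaks of median autosomal length 138 bp, the arrested SS list 227847 of 439 bp, the proliferating WT list 143252 of 735 bp and the proliferating SS list 168793 of 705 bp. Any difference between arrested WT and arrested SS therefore cannot be told apart from a difference in how the peaks were called. Positions are in the mm9 build and counted from 1. Genes and sequence at the islands were not analysed here, because no annotation or genome of that build was used.

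The islands were mostly short and weakly enriched. Their median length was 1830 bp, with the middle 50% between 1309 and 2975 bp, and 36.1% of them were 1 to 1.5 kb long. The longest measured 9986 bp. The authors' fold enrichment over background had a median of 2.69, with the middle 50% between 2.52 and 2.90 and a full range of 1.65 to 10.6. It was under 3 for 23057 islands (82.5%) and at least 4 for 479 (1.71%). The authors' -log10 q-value, which states how strong the evidence is that a peak exceeds background, had a median of 2.10 and ranged from 1.08 to 66.2. It was at least 5 for 894 islands (3.20%) and at least 10 for 159 (0.569%), whereas 12336 islands (44.2%) were under 2.

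Stronger islands were longer. Median fold enrichment stepped up through the length classes, from 2.56 in islands of 1 to 1.5 kb to 2.63 at 1.5 to 2 kb, 2.71 at 2 to 3 kb, 2.84 at 3 to 5 kb and 3.06 at 5 to 10 kb. The 479 islands with a fold enrichment of at least 4 had a median length of 5989 bp. Across islands, which share 1 library and are not independent, Spearman's rho was 0.473 between length and fold enrichment. Between fold enrichment and -log10 q it was 0.995, so the authors' 2 columns rank the islands almost identically. Only 6 of the 894 islands with a -log10 q-value of at least 5 had a fold enrichment under 3.

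Median fold enrichment was 2.81 in the 20462 peaks of the same length range that lie within 50 kb of a long peak, called neighbouring peaks from here on. It was 3.72 in the 3356 autosomal peaks over 10 kb and 2.49 in the 79131 peaks under 1 kb. The neighbouring peaks were also longer than the islands, with a median of 2523 bp. The limits of the rule cut through a continuum. Isolated peaks up to 100 bp short of the 1 kb limit had a median fold enrichment of 2.52 (n = 2940), against 2.55 for islands less than 100 bp over it (n = 2560). Isolated peaks of 9 to 10 kb had 3.36 (n = 133), against 3.38 for autosomal peaks just over 10 kb, up to 11 kb (n = 521). Peaks 40 to 50 kb from a long peak had 2.74 (n = 1623), and islands up to 10 kb beyond the 50 kb limit had 2.71 (n = 1336).

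**Figure D1:**
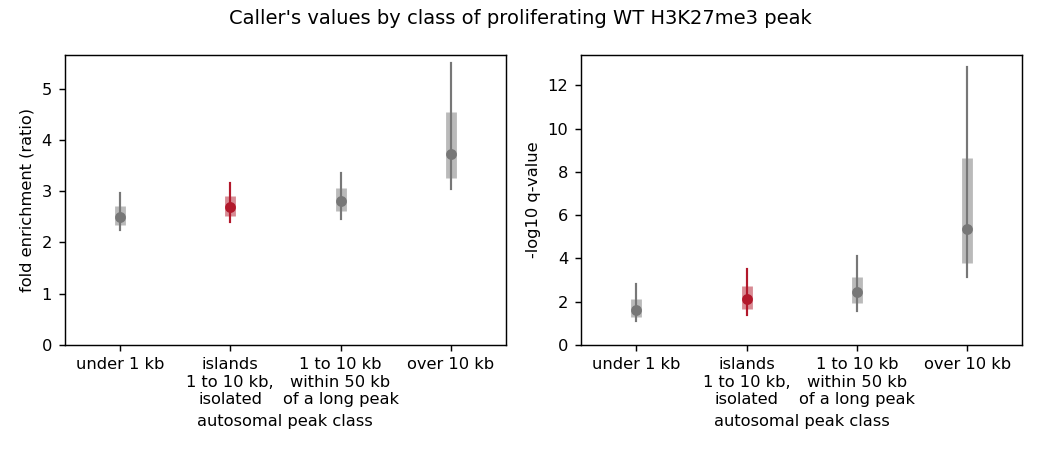
Fold enrichment and -log10 q-value of the peaks, both from the authors' lists, by class of autosomal peak in the proliferating WT H3K27me3 list, with points at the median, thick bars from the 25th to the 75th percentile and thin bars from the 10th to the 90th. The islands (median fold enrichment 2.69) sit just under the neighbouring peaks of the same length range (2.81) and below the peaks over 10 kb (3.72).

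Most islands were also called in proliferating SS cells. Peaks of the proliferating SS list covered 72.4% of the islands' summed length, against 12.1% of their flanks, defined as the stretches 10 to 30 kb from an island edge with all islands removed. Some overlap was present at 25600 islands (91.6%, Wilson 95% interval over islands 91.3 to 92.0), against 93.9% of all 48396 autosomal proliferating WT peaks of 1 to 10 kb. At least 50% of the length was covered at 19217 islands (68.8%, interval 68.2 to 69.3). The same was true of 75.2% of all those peaks, so the islands lay under their background on both calls. Neighbouring peaks stood at 83.9%. These intervals cover counting over islands only and say nothing of the spread between libraries. They treat islands as independent, although 20421 of them lie at most 10 kb from another island, so they may be too narrow even for counting. The rule allows no SS peak over 10 kb within 50 kb of an island, which bounds how long an SS peak there can be.

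Coverage in proliferating SS cells rose with the length and with the strength of the island. It was 52.3% of length in islands of 1 to 1.5 kb, 61.7% at 1.5 to 2 kb, 71.2% at 2 to 3 kb, 79.9% at 3 to 5 kb and 87.0% at 5 to 10 kb. By quintile of -log10 q it ran from 45.7% in the lowest to 87.9% in the highest. Strength and coverage moved together within a length class too. Among islands of 1 to 1.5 kb, those in the lowest quintile (n = 3580) were covered over 40.9% of their length and those in the highest (n = 877) over 71.1%. Among islands of 3 to 5 kb, the corresponding values were 56.2% (n = 157) and 88.9% (n = 1559).

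Within each length class, less of the islands than of the neighbouring peaks was covered. For proliferating SS this is partly set by the rule, since neighbouring peaks may lie inside SS peaks over 10 kb and islands may not. In the class of 1 to 1.5 kb, proliferating SS peaks covered 52.3% of island length and 64.6% of the length of the 4790 neighbouring peaks, whose median fold enrichment was 2.62 against 2.56. In the class of 5 to 10 kb the shares were 87.0% and 91.8%. Without the neighbouring peaks that touch an SS peak over 10 kb, a comparison added after seeing the data that itself removes well-covered peaks, they were 52.3% against 61.9% (n = 4311) and 87.0% against 88.5% (n = 2620). In arrested SS, whose peaks the rule did not use, the shares in the shortest class were 19.6% for islands and 27.7% for all neighbouring peaks, and in the longest 44.7% and 53.2%. The order was the same in each of the 5 length classes for all 3 other H3K27me3 lists, as deposited and without those peaks. With distance from the nearest long peak, coverage in proliferating SS cells moved from 75.3% at 50 to 100 kb to 69.3% beyond 1 Mb. Median length also fell over these distances, from 1994 to 1687 bp. The islands lay a median of 263 kb from the nearest peak over 10 kb, and 4352 of them lay more than 1 Mb away.

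The borders of the islands were less well shared than their presence. A one-to-one partner, where 1 SS peak touched only that island among all WT peaks and the island touched no other SS peak, was found for 14880 islands (53.3%). The SS partner was a median of 0.940 times as long, with the middle 50% between 0.602 and 1.22, and was the longer of the pair in 6558 cases (44.1%). Starts differed by a median of 403 bp and ends by 392 bp. Both edges lay within 500 bp in 4988 pairs (33.5%). At 7405 islands (26.5%) the SS peak also touched another WT peak, and 5057 islands touched 2 or more SS peaks. These counts were not made for all peaks of 1 to 10 kb, so they do not set the islands apart from such peaks.

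No proliferating SS peak touched 2334 islands (8.36%). These were the shorter and weaker ones, with a median length of 1231 bp against 1939 bp for the others and a median fold enrichment of 2.48 against 2.71. Only 13 of them were 3 kb or longer. Their nearest SS peak lay a median of 954 bp away. The longest, on chromosome 14 at 118497645-118501441, was 3797 bp with a fold enrichment of 3.25, and was covered over 23.0% by arrested WT and 37.7% by arrested SS peaks. On the same chromosome the island at 69113371-69117101 was 3731 bp with a fold enrichment of 3.01, and was covered over 0% by arrested WT and 40.4% by arrested SS peaks. The island on chromosome 13 at 17720764-17724194 had 3.88% and 4.75% there.

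**Figure D2:**
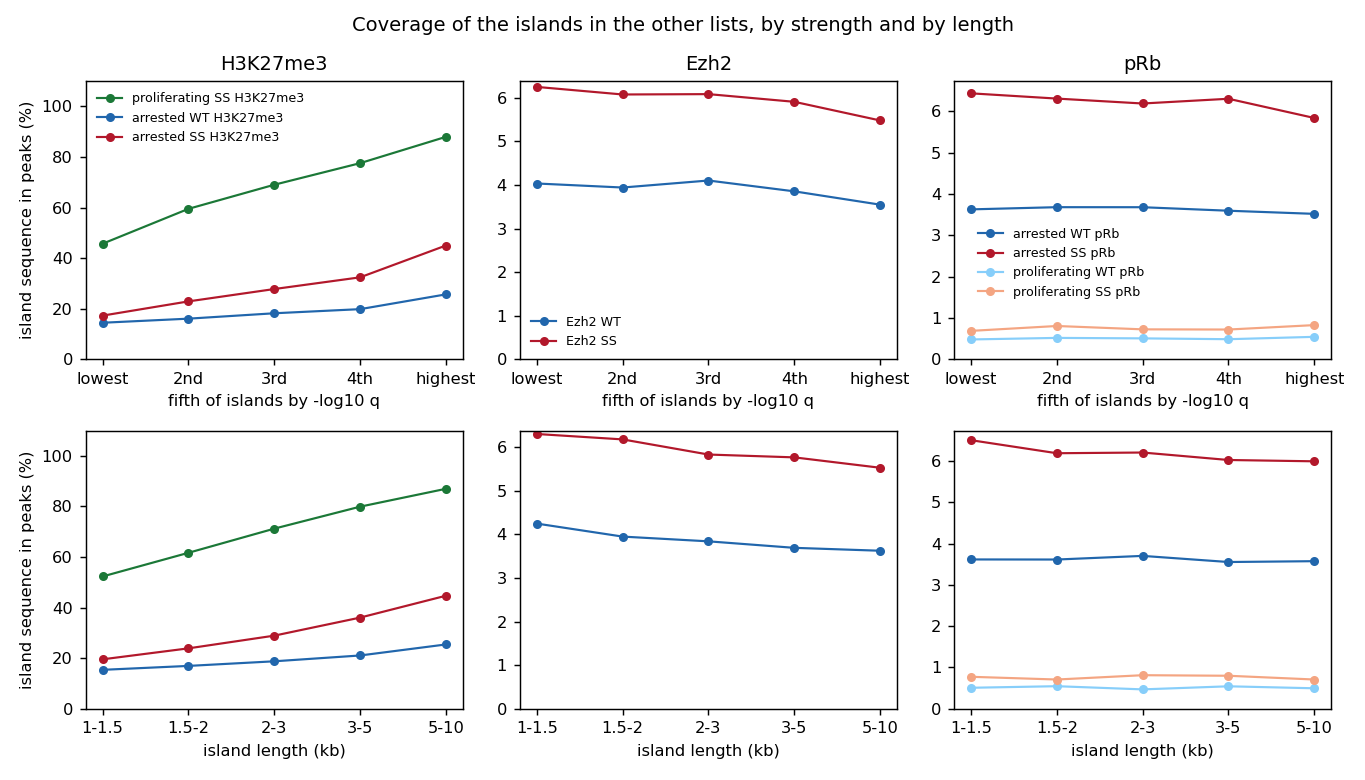
Share of island length (percent) covered by peaks of the other lists, by quintile of the islands' -log10 q-value (upper row) and by island length in kb (lower row), with 1 library behind each line. Along the upper row the 3 H3K27me3 lists climb from the weakest to the strongest quintile (proliferating SS from 45.7% to 87.9%), whereas Ezh2 coverage in SS cells moves from 6.25% to 5.48%.

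Less of the islands was called in the arrested lists, in either genotype. In WT this is set by the rule, since the islands are proliferating WT peaks. The arrested lists also cover less of the autosomes, 185 Mb in WT and 160 Mb in SS, against 235 and 284 Mb in the proliferating lists. The ratio of island to flank coverage was 5.43 in arrested SS and 5.96 in proliferating SS. A change of the mark on arrest cannot be told apart from these differences between lists. Arrested WT peaks covered 20.1% of island length and 8.06% of the flanks. Arrested SS peaks covered 32.0% of island length and 5.90% of the flanks. Some overlap was found at 21719 islands (77.8%, interval 77.3 to 78.2) in arrested WT, against 81.3% of all peaks of 1 to 10 kb. In arrested SS it was found at 19855 (71.1%, interval 70.5 to 71.6), against 76.6%. Coverage over at least 50% of the length was rarer, at 1992 islands (7.13%, interval 6.84 to 7.44) in arrested WT, where 7.46% of all peaks of 1 to 10 kb reached it. It was met at 5737 islands (20.5%, interval 20.1 to 21.0) in arrested SS, where the background was 26.5%. In arrested WT this stricter call became rarer with island length. It was met at 8.74% of islands of 1 to 1.5 kb and at 4.94% of those of 5 to 10 kb. In arrested SS it became more frequent, from 15.1% to 38.6% over the same classes. Arrested WT peaks touching an island were short, with a median of 192 bp, and came 1.67 to each touched island. Arrested SS peaks there had a median of 673 bp and came 1.45 to each. In both lists the peaks at islands were longer than those in the flanks, whose medians were 138 and 371 bp.

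As shares of summed length, covered shares rose with island length in both arrested lists. In WT they went from 15.4% in islands of 1 to 1.5 kb to 25.4% at 5 to 10 kb. In SS they went from 19.6% to 44.7%, so the gap between the lists widened. The stricter call given above also rose with length in SS but fell in WT, so the measures disagree for arrested WT. More of the island was covered in arrested SS at 15131 islands (54.2%), more in arrested WT at 9963 (35.7%), and 2840 (10.2%) were equal, 2822 of them because neither list covered any base. SS was the higher at 67.8% of neighbouring peaks and 96.2% of peaks over 10 kb, so the islands leaned to SS less than either class. These classes are not matched for length, and neighbouring peaks are longer (median 2523 bp against 1830 bp). Islands of 3 to 5 kb had SS higher at 70.6%. In islands of 1 to 1.5 kb the shares were level, with SS higher at 39.5% and WT higher at 39.3%. In islands of 5 to 10 kb SS was higher at 81.1% and WT at 18.9%. The median difference between the covered shares, SS minus WT, was 0 points in the shortest class and 19.3 points in the longest. It was 3.63 points over all islands, 15.5 in neighbouring peaks and 30.8 in peaks over 10 kb. Summed over length, arrested SS stood above arrested WT on each of the 19 autosomes, with SS between 30.6% and 34.6% and WT between 19.2% and 21.4%. The library and its calling are shared by all 19, so this is not a replicate.

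Large differences were found in both directions. Coverage was at least 50 points higher in arrested SS at 2609 islands (9.34%, against 11.3% of all peaks of 1 to 10 kb) and at least 50 points lower at 783 (2.80%, against 2.38%). The island on chromosome 6 at 125322845-125325671 (2827 bp) was fully covered in arrested SS and at 0% in arrested WT, with 84.6% in proliferating SS. The islands on chromosome 14 at 60631218-60633388 (2171 bp) and chromosome 7 at 37882593-37884736 (2144 bp) showed the same pair of values. The opposite pair, full coverage in arrested WT and 0% in arrested SS, was met on chromosome 8 at 118238956-118240730 (1775 bp), on chromosome 1 at 183512077-183513612 (1536 bp) and on chromosome 11 at 110200362-110201879 (1518 bp). The first 2 of these were fully covered in proliferating SS and the last over 66.5%. Their fold enrichments ran from 2.55 to 3.06, the highest being that of the island on chromosome 8, which lies in the strongest quintile by -log10 q-value (3.31).

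**Figure D3:**
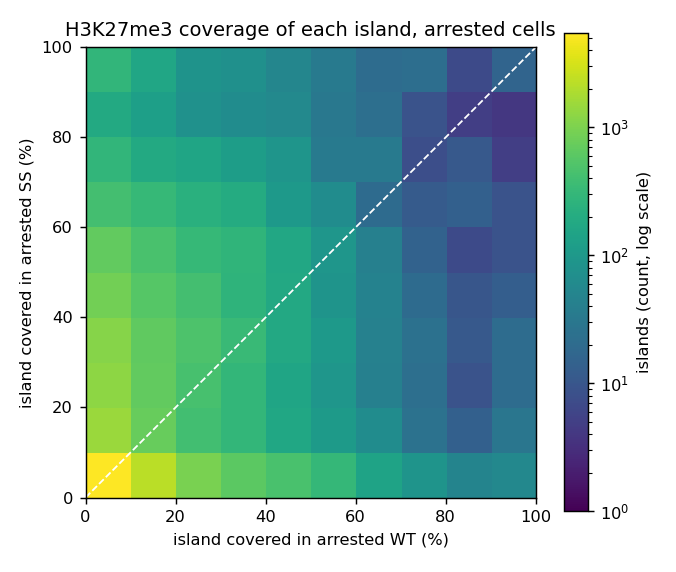
Number of islands by covered share in arrested WT (horizontal, percent) and arrested SS (vertical, percent), with colour giving the count on a log scale. The fullest cell holds the 5432 islands under 10% in both lists, and 2609 islands differ by at least 50 points toward SS against 783 toward WT.

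Across the 4 H3K27me3 lists, 15934 islands (57.0%) had at least 1 bp in a peak of all 3 other lists, against 64.2% of all peaks of 1 to 10 kb, and 657 (2.35%, against 1.62%) in none. The former had a median length of 2557 bp and a median fold enrichment of 2.78, the latter 1190 bp and 2.45. When at least 50% of the length was required, 474 islands (1.70%, against 2.37% of all peaks of 1 to 10 kb) passed in all 3 and 7387 (26.4%, against 20.8%) in none. A further 13363 (47.8%, against 47.9%) passed in proliferating SS alone, 4381 (15.7%, against 21.3%) in proliferating and arrested SS, and 999 (3.58%, against 3.61%) in proliferating SS and arrested WT. The 474 islands that passed in all 3 lists had a median length of 2265 bp and a median fold enrichment of 2.97, both above the medians over all islands (1830 bp and 2.69). Ranked by the lowest of the 3 covered shares, a rule that favours short islands, the leading 3 were 1071 to 1296 bp long. The island on chromosome 11 at 106193429-106194532 (1104 bp, fold enrichment 2.69) was covered over 100% in each. So was that on chromosome 8 at 123153053-123154123 (1071 bp, fold enrichment 2.34). The island on chromosome 19 at 38362299-38363594 (1296 bp, fold enrichment 2.72) was fully covered in both SS lists and over 99.9% in arrested WT.

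Within the other H3K27me3 lists the peaks at islands scored above those in the flanks. The median score percentile of proliferating SS peaks, within their own list, was 67.6 at islands, 42.1 in flanks and 95.3 in peaks over 10 kb. In arrested SS these were 56.0, 44.6 and 74.2. The spread was smallest in arrested WT, with 54.9, 49.5 and 58.3.

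Ezh2 peaks, called in serum-deprived cells, covered little of the islands and only slightly more than of their flanks. In WT cells they covered 3.84% of island length and 3.24% of the flanks, a ratio of 1.18. In SS cells they covered 5.88% and 4.95%, a ratio of 1.19. At least 1 bp of an Ezh2 peak lay in 16768 islands (60.0%, interval 59.5 to 60.6) in WT, where 62.9% of all peaks of 1 to 10 kb had one. In SS it lay in 20181 islands (72.2%, interval 71.7 to 72.8), where the background was 74.5%. A call of at least 1 bp is easier to meet in a longer peak. The islands had a median of 1830 bp, against 2060 bp for all peaks of 1 to 10 kb. By covered share the order was reversed, with 3.73% of the length of neighbouring peaks in Ezh2 peaks in WT and 5.64% in SS, both slightly under the islands. Coverage was above that of the flanks on all 19 autosomes in both lists, with ratios from 1.10 to 1.27 in WT and from 1.14 to 1.24 in SS. The Ezh2 lists hold 840543 and 1184135 peaks, with median autosomal lengths of 50 and 51 bp.

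Unlike the 3 H3K27me3 lists, the Ezh2 lists covered the longer and stronger islands no more than the shorter and weaker ones. In WT cells Ezh2 coverage was 4.25% in islands of 1 to 1.5 kb and 3.63% in those of 5 to 10 kb. In SS cells it was 6.30% and 5.53%. Peaks over 10 kb had 3.42% in WT and 5.26% in SS, under the islands on 19 autosomes in WT and 18 in SS. Within their own lists the Ezh2 peaks at islands had median score percentiles of 50.5 in WT and 51.6 in SS, against 49.8 and 49.9 in flanks.

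The pRb lists also covered slightly more of the islands than of their flanks. In arrested WT cells pRb peaks covered 3.61% of island length and 3.30% of the flanks, and in arrested SS cells 6.16% and 5.61%. The ratios were 1.09 and 1.10. In proliferating cells the shares were 0.512% and 0.494% in WT and 0.763% and 0.704% in SS. At least 1 bp lay in 10759 islands (38.5%, interval 37.9 to 39.1) in arrested WT, against 42.1% of all peaks of 1 to 10 kb, and in 14515 (52.0%, interval 51.4 to 52.5) in arrested SS, against 55.0%. In proliferating WT the count was 2347 (8.40%, against 9.39%) and in proliferating SS 3394 (12.2%, against 13.3%). These shares followed the sizes of the lists, which hold 424588 and 650383 peaks in arrested and 77809 and 106472 in proliferating WT and SS cells. The islands took 3.49%, 3.43%, 3.27% and 3.53% of the peaks of these lists in that order. The call of at least 1 bp favours longer peaks here too. In neighbouring peaks the pRb covered share was 3.66% in arrested WT, slightly above the islands. It was under the islands in the other pRb lists, at 5.95% in arrested SS, 0.501% in proliferating WT and 0.719% in proliferating SS. Island coverage was above flank coverage on 19 autosomes in both arrested lists, on 12 in proliferating WT and on 16 in proliferating SS. Within their own lists pRb peaks at islands had median score percentiles of 50.6 in arrested WT, against 50.04 in flanks, and of 49.3 in arrested SS, against 52.0, so in arrested SS the peaks at islands scored lower than those in the flanks. Coverage over at least 50% of the length in any Ezh2 or pRb list was found at 140 islands (0.501%), against 0.407% of all peaks of 1 to 10 kb.

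Profiles across the islands separated H3K27me3 from Ezh2 and pRb. Proliferating SS H3K27me3 coverage was 77.0% in the middle 20% of the islands, 63.7% in the 10% at either end and 38.3% in the first 1 kb outside. It was 29.1% at 4 to 5 kb, 26.0% at 9 to 10 kb and 18.2% at 30 to 50 kb. In this profile, unlike in the flanks above, other islands count as surroundings. Arrested SS dropped from 36.3% in the middle to 14.4% in the first 1 kb outside, and arrested WT from 21.6% to 13.3%. Ezh2 stepped instead at the border with no rise toward the middle. In WT cells it stood at 3.84% in the middle, 3.95% at the ends and 3.32% in the first 1 kb outside, and in SS cells at 5.81%, 5.93% and 5.17%. For arrested WT pRb the values were 3.55%, 3.77% and 3.37%, and for arrested SS pRb 6.12%, 6.31% and 5.74%.

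**Figure D4:**
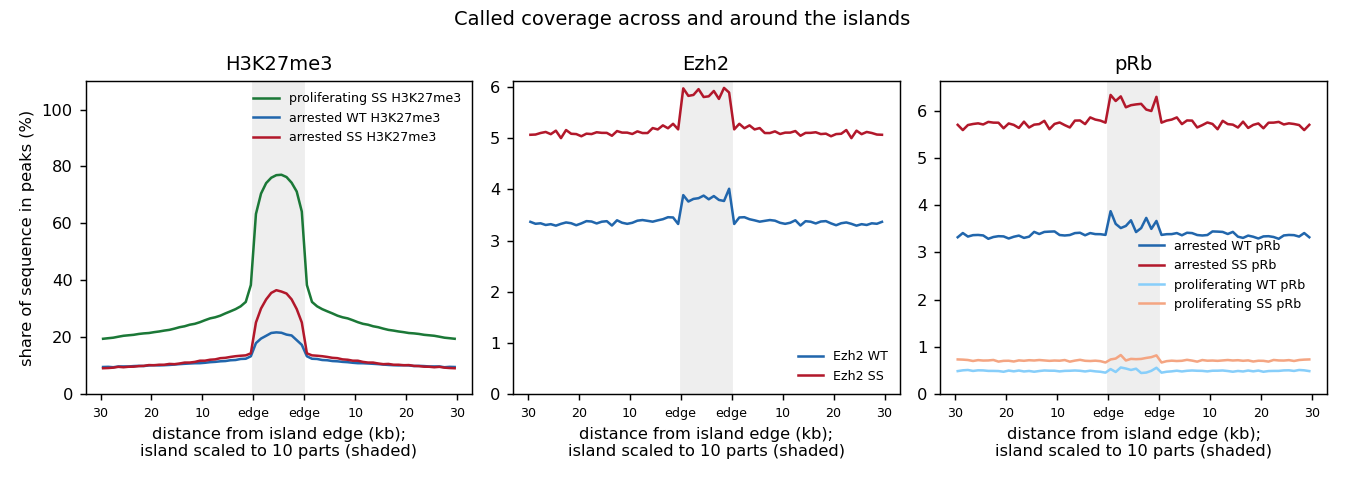
Mean covered share (percent) across the islands scaled to equal length and in their surroundings to 30 kb (distance from the edge, both sides averaged), for the H3K27me3, Ezh2 and pRb lists. H3K27me3 peaks toward the island middle (proliferating SS 77.0%) and falls outside (38.3% in the first 1 kb), whereas Ezh2 in WT cells steps from 3.95% at the island ends to 3.32% in the first 1 kb outside.

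The islands with the highest -log10 q-values differed from the typical island and from each other. The highest, 66.2, belonged to an island of 1895 bp on chromosome 1 at 135490977-135492871 with a fold enrichment of 9.22. Proliferating SS peaks covered 100% of it, arrested WT 84.7% and arrested SS 98.2%. Arrested WT pRb peaks covered 80.5% of it, arrested SS pRb 22.0%, and proliferating pRb 0% in both genotypes. Ezh2 covered 9.50% in WT and 29.8% in SS.

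On chromosome 4 at 149183546-149186376 lay the island with the highest fold enrichment, 10.6, a -log10 q-value of 62.5 and a length of 2831 bp. It was covered over 96.6% in proliferating SS, 45.4% in arrested WT and 73.5% in arrested SS. Ezh2 and pRb covered little of it, with 0% and 3.60% for Ezh2 in WT and SS and at most 4.66% for pRb, in proliferating SS. Over all islands, Ezh2 in SS covered 5.88% and pRb in proliferating SS 0.763%.

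Another pattern was found on chromosome 17 at 39979890-39985781, an island of 5892 bp with a -log10 q-value of 43.5 and a fold enrichment of only 2.20. H3K27me3 covered it over 100% in proliferating SS, 99.3% in arrested WT and 98.9% in arrested SS. It was also filled by Ezh2, at 94.2% in WT and 98.7% in SS, and by pRb in arrested WT at 100%, whereas the other 3 pRb lists held 0%. Its nearest peak in the proliferating WT list lay 970237 bp away. It is one of the 6 islands with a -log10 q-value of at least 5 and a fold enrichment under 3. The input libraries and the sequence of this stretch were not analysed here. Whether its coverage in so many lists reflects binding, or signal that the input shares, was not tested.

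Taking the 50 islands of highest -log10 q-value, all 50 were touched in each of the 3 other H3K27me3 lists. Coverage of their length was 95.8% in proliferating SS, 45.9% in arrested WT and 72.5% in arrested SS. Ezh2 coverage was 4.08% in WT and 6.45% in SS, and pRb coverage 5.80% in arrested WT and 5.25% in arrested SS. The island on chromosome 17 described above is among them, and without it the Ezh2 shares were 2.36% and 4.70%, under those of the flanks of all islands (3.24% and 4.95%), and arrested WT pRb was 4.01%. The longest islands looked different. Those on chromosome 9 at 72766036-72776021 (9986 bp), chromosome 6 at 91498140-91508124 (9985 bp) and chromosome 17 at 14626994-14636973 (9980 bp) had fold enrichments of 3.61, 2.97 and 3.35. Proliferating SS covered them over 85.0%, 88.9% and 93.3%. Arrested SS covered them over 37.2%, 16.2% and 59.8%, and arrested WT over 18.3%, 21.0% and 13.9%, so arrested WT was the higher of the pair only at the island on chromosome 6.

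The islands were isolated from long peaks but not from each other. Between neighbouring islands on a chromosome the median distance was 9160 bp, with 25% of the 27915 distances under 2530 bp and 25% over 44071 bp. Of these distances, 51.8% were at most 10 kb, 31.2% were 10 to 100 kb and 17.0% were over 100 kb. Of the 4741 over 100 kb, 1638 (34.5%) contained a peak over 10 kb, and these exceed 100 kb because of the isolation rule. The shortest distance, 621 bp, was also the shortest between any 2 peaks of the list. The nearest peak of any length in the same list, which may be another island, lay a median of 1138 bp away, and 94.5% of islands had one within 10 kb. Only 250 islands had none within 50 kb.

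**Figure D5:**
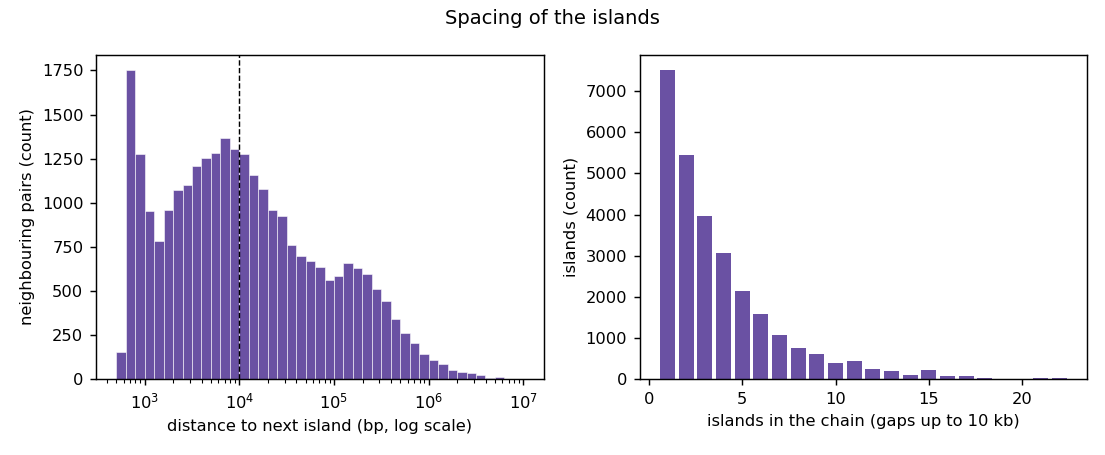
Distances between neighbouring islands (bp, logarithmic axis) and the number of islands by size of chain, where a chain joins islands at most 10 kb apart (dashed line). The median distance is 9160 bp, and 7513 islands stand alone.

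Joining islands at most 10 kb apart gave 13473 chains. Of the islands, 7513 (26.9%) stood alone and 20421 belonged to 5960 chains of 2 or more. Such chains spanned a median of 12873 bp, of which islands filled 50.8%. Chains spanning more than 10 kb numbered 3879 and held 16021 islands (57.4%), so the majority of islands sat in stretches longer than the length limit of a single island. Islands in larger chains were somewhat longer and better covered elsewhere. Coverage in proliferating SS was 66.2% for islands alone, 71.4% in chains of 2, 74.8% in chains of 3 to 5, 75.8% in chains of 6 to 10 and 76.5% in chains of 11 or more. In arrested SS it ran from 28.1% to 36.8% over the same classes and in arrested WT from 18.5% to 20.8%. Ezh2 coverage in WT cells was 3.92% for islands alone and 3.86% in the largest chains.

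The gaps inside chains were partly covered by the H3K27me3 lists. Proliferating SS peaks covered 32.0% of the 50.4 Mb in the 14461 gaps, and short peaks of the proliferating WT list itself 7.50%. The choice of gaps bounds the WT value, because they lie between successive WT islands. The WT list can hold only peaks under 1 kb there and can bridge no gap. Around islands in general, proliferating SS coverage was 38.3% in the first 1 kb outside and 29.1% at 4 to 5 kb. Arrested WT covered 12.5% and arrested SS 12.8%. A single proliferating SS peak bridged 2176 gaps (15.0%), most of them among the 5881 gaps under 2 kb, where 1998 (34.0%) were bridged. Arrested SS bridged 326 gaps in all (2.25%) and arrested WT 103 (0.712%).

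The chain with the most islands held 22, of 1054 to 6936 bp and with fold enrichments of 2.30 to 4.12. It lay on chromosome 2 at 75055321-75173266, and islands filled 46.1% of its 117946 bp. Its islands were covered over 64.0% in proliferating SS, 19.9% in arrested WT and 43.2% in arrested SS. A chain of 21 islands on chromosome 1 at 37707067-37815747 had 77.8%, 21.1% and 40.5%. One of 18 islands on chromosome 12 at 109478575-109594465 had 76.2%, 20.8% and 40.7%. Arrested SS coverage in all 3 chains was above the 32.0% over all islands, and Ezh2 coverage in them was 1.95% to 2.81% in WT and 4.08% to 7.11% in SS.

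The islands were spread over every autosome. Their density ran from 9.14 per Mb on chromosome 4 to 15.2 per Mb on chromosome 11, with a median of 11.6, counted over 100 kb bins that hold a peak of any list, while peaks over 10 kb varied more, from 0.575 per Mb on chromosome 3 to 2.35 on chromosome 11. Proliferating SS coverage of the islands ranged from 67.9% on chromosome 14 to 75.9% on chromosome 4.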

How the data were processed

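Peak lists of 10 immunoprecipitated libraries, 1 per group, were used, and 10 input libraries in the labels were not analysed here. The submitters' processing notes name mm9 as the build and list MACS2, Bowtie2, bedtools and HOMER. What each tool did, with its version, settings and control, is not given in the sources used here. The deposited H3K27me3 and Ezh2 lists give a score, the fold enrichment as a ratio, and the -log10 of the p-value and of the q-value from the authors' peak calling. The deposited pRb lists give a score of unstated unit. The authors deposited 1 list per library, and no counts of reads were used, so depth is unknown and no interval based on it is given. More reads or looser settings yield more and weaker peaks and move every covered share.

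The islands, the comparison classes and the tests were chosen with earlier results of these data known. Covered shares are bases inside any peak of a list over all bases of a class, computed with numpy 2.4.6 and pandas 2.3.3 in Python 3.11.15. The interval and overlap code was tested on simulated data. Intervals on shares of islands are Wilson 95% intervals. Flanks lie 10 to 30 kb from island edges, and chains join islands within 10 kb. No test between groups was possible with 1 library each. The named regions were the 3 islands of highest -log10 q-value, the 3 longest, the 3 covered best in all 3 other H3K27me3 lists, the 3 with the largest and the 3 with the smallest difference between arrested SS and arrested WT, the 3 longest without a proliferating SS peak, and the 3 chains of most islands. Alternatives changed the isolation distance, the island length and score, the merging of proliferating WT peaks, and the length and score of peaks in the other lists. Flanks without any proliferating H3K27me3 peak were added after seeing the data.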

Additional observations from a re-analysis of the deposited data

How the results depend on the processing

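No paired analysis was possible because each group has 1 library. Keeping only islands of 2 to 10 kb left 12428 islands, at a median distance of 24187 bp, with 79.8% of length covered in proliferating SS, 21.9% in arrested WT and 37.0% in arrested SS. Islands at or above the median -log10 q-value numbered 13968, at 21700 bp, with 81.5%, 22.4% and 37.9%. Isolation by 25 kb gave 8462 bp, 73.3% in proliferating SS and 33.0% in arrested SS, and isolation by 100 kb gave 10199 bp, 71.6% and 31.2%. Merging proliferating WT peaks within 1 kb, with the other lists unchanged, gave 11051 bp, 66.0% in proliferating SS, 18.5% in arrested WT and 28.1% in arrested SS. Such merging adds the gaps between WT peaks to the length of the islands. Taking only the higher-scoring 50% of each other list gave 62.9% in proliferating SS, 12.6% in arrested WT and 21.6% in arrested SS. Taking only peaks of at least 500 bp gave 71.0%, 13.9% and 28.3%. It raised the ratio of island to flank coverage to 1.47 for Ezh2 in WT, 1.46 for Ezh2 in SS and 1.25 for arrested WT pRb. These raised ratios rest on few peaks, since only 0.509%, 1.04% and 1.12% of the peaks of those lists at islands were that long. Under the other settings run, flanks without proliferating H3K27me3 peaks included, the ratios ran from 1.15 to 1.24 for Ezh2 and from 1.07 to 1.12 for pRb. Adding the arrested lists to the isolation rule left 27934 islands. This setting could change little. All 6 autosomal arrested WT peaks over 10 kb, and 627 of the 628 in arrested SS, touch a proliferating peak over 10 kb. The ratios of island to flank coverage for Ezh2 and arrested WT pRb stayed above 1 under each setting. The number of islands, the covered shares and the median distance have no direction that could change. Arrested SS covered more of the islands than arrested WT under each setting, by 9.00 to 15.5 points. Unknown depth and calling settings limit each comparison between lists.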

Other observations

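In 140 islands, chosen after their values were seen, at least 50% of the length was covered in at least 1 Ezh2 or pRb list (0.501%, against 0.407% of all peaks of 1 to 10 kb). Their median length was 1212 bp. In 11 of them this held in 2 or more of these lists, and 4 of the 11 lay close together on chromosome 5, between 14952924 and 15022806. The island there at 14952924-14955459 (2536 bp, fold enrichment 2.16) was covered over 59.9% by Ezh2 in SS, 58.8% by pRb in arrested SS and 58.6% by pRb in proliferating SS. H3K27me3 covered it over 100% in proliferating SS, 0% in arrested WT and 10.4% in arrested SS. Further along, the island at 15009299-15010471 (1173 bp) was covered over 56.0% by Ezh2 in WT, 89.5% by pRb in arrested WT and 51.5% by pRb in arrested SS, and no other H3K27me3 list held a peak in it. On chromosome 8 at 71956245-71957970, Ezh2 covered 50.5% in WT and 53.7% in SS, and pRb 82.2% in arrested SS. The content of these stretches was not analysed here.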
